A study of Mus musculus with 9 samples.

Results

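The genes described here are those of fat synthesis and fat storage. They comprise the enzymes that build and modify fatty acids, the transcription factors that drive them, the enzymes that assemble triglyceride, the proteins that coat lipid droplets, and the lipases and carriers that release and take up fatty acids. The set was a list of 40 gene symbols, and each gene was represented by the probe set that carried its symbol alone and had the highest mean over the 9 arrays. Of the 40 genes, 39 were measured this way, among 22180 genes in all. Scd2 was not analysed here because its probe set carried several symbols.

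Kidney RNA was measured from 9 male mice in 3 groups of 3, with 1 Affymetrix array per mouse. The db/db + irbesartan group was diabetic db/db mice given irbesartan, a blocker of the angiotensin II type 1 receptor, by mouth for 12 weeks. The db/db group was diabetic mice given vehicle for 12 weeks, and the db/m group was nondiabetic mice, also given vehicle for 12 weeks. The methods name the background C57BL/KsJ and saline as the vehicle. Mice with 2 copies of the db mutation lack the signalling form of the leptin receptor in every tissue, and become obese and diabetic. Leptin signalling through that form was therefore lost in both db/db groups. The submitters' design text gives an age of 10 weeks at the start for db/db mice, where the methods give a younger one, and the labels state no age for db/m mice. The labels name the tissue kidney, where the methods name renal cortex, and they name another array than the methods do. The hour of collection is not given in the sources used here.

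A cell makes fatty acid from citrate through acetyl-CoA and malonyl-CoA, lengthens and desaturates it, and joins it to glycerol as triglyceride, which is stored in droplets coated by perilipins. SREBP1 and ChREBP, encoded by Srebf1 and Mlxipl, switch on the synthesis genes in response to insulin and glucose, and PPARγ, encoded by Pparg, drives the storage programme of fat cells. The proximal tubule burns fatty acid as its main fuel, and fat accumulation in tubules and glomeruli has been described in diabetic kidneys. Several members, among them Adipoq, Plin1 and Cidec, are best known from fat cells.

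The values are log2 signals, so that a difference of 1 is a 2-fold change. Signals of different genes cannot be compared with each other on an array, and only the same gene is compared between groups. The median signal of an array lay between 3.36 and 3.45, and arrays correlated with each other at 0.984 to 0.994 over all probe sets. Nephron genes were read as a check on the tissue label, which they cannot settle between kidney and renal cortex. The mean of 6 proximal tubule genes lay between 11.02 and 11.23 in the 9 mice, and that of 6 genes of other nephron segments between 9.63 and 9.98.

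Before any comparison, 2 arrays stood apart in this gene set. Replicate 2 of the db/db + irbesartan group and replicate 2 of the db/m group carried high signals of fat cell genes. Lep, which encodes leptin, read 3.65, 7.15 and 3.65 in db/db + irbesartan mice, 3.37, 3.22 and 3.61 in db/db mice, and 3.16, 3.98 and 3.16 in db/m mice. Retn, which encodes resistin, read 3.24, 5.61 and 3.25 in db/db + irbesartan mice, 2.75, 3.36 and 2.90 in db/db mice, and 3.06, 5.57 and 3.12 in db/m mice. Cidec, a droplet fusion protein abundant in white fat, read 3.82, 6.69 and 3.86 in db/db + irbesartan mice, 3.35, 3.30 and 3.27 in db/db mice, and 3.19, 5.53 and 3.61 in db/m mice. In all 3 genes the second mouse of both groups was the highest, while no db/db mouse was high. Lep and Retn are no members of the set. Averaged over the 7 measured white adipocyte markers, the signal was 3.38, 5.03 and 3.46 in db/db + irbesartan mice, 3.20, 3.24 and 3.28 in db/db mice, and 3.23, 4.31 and 3.26 in db/m mice. Over the 4 of these markers that are not members, it ranged over 3.51 to 5.21, 3.28 to 3.41 and 3.26 to 4.31 in the same groups.

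**Figure D1:**
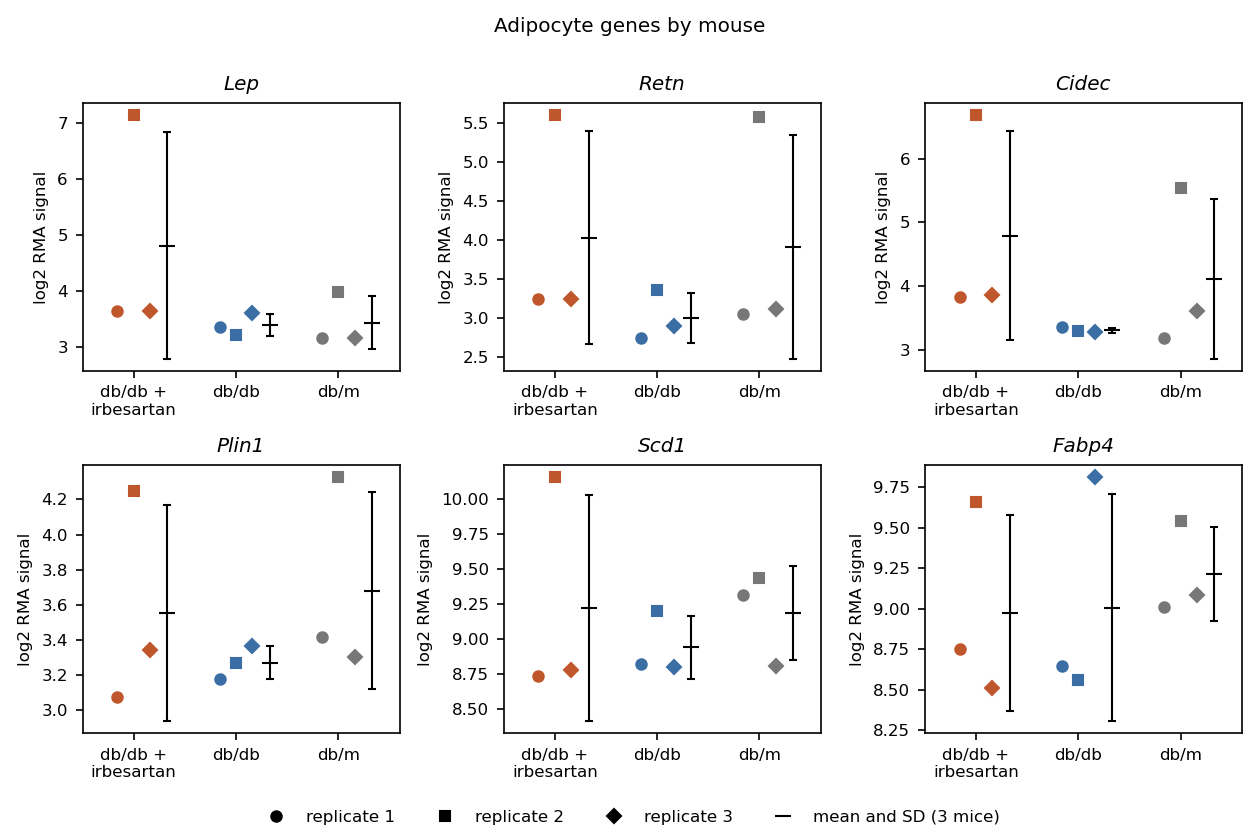
Log2 RMA signal (y axis) of 6 genes that fat cells express strongly, by group (x axis), 1 point per mouse with the mean and SD of 3 mice. Replicate 2 (square) of db/db + irbesartan mice was the highest of its group in all 6 genes, as was replicate 2 of db/m mice, while Fabp4 was also high in db/db replicate 3, at 9.81.

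The db/db + irbesartan replicate 2 also carried high signals of some macrophage genes. Gpnmb, a glycoprotein of lipid-laden macrophages, read 3.62, 8.47 and 2.88 in db/db + irbesartan mice, and 2.69 to 3.18 in the other 6 mice. Cd68, Lyz2, Trem2 and Cd14 were also highest of all mice there, while Csf1r, Adgre1, Mrc1 and Itgam were higher in a mouse of another group. Csf1r read 6.69 there, below all db/m mice. The mean of 9 macrophage genes, Gpnmb among them, was 4.66, 5.97 and 4.35 in db/db + irbesartan mice, 4.55 to 4.85 in db/db mice and 4.67 to 4.86 in db/m mice. The members were also counted by array. Plin1, Cidec and Adipoq are both members and white adipocyte markers, so their part in these counts is no separate support. Of the 39 members, 28 (71.8%) were highest of their group in db/db + irbesartan replicate 2, against 36.9% of all genes. In db/m replicate 2 it was 19 (48.7%), against 33.4% of all genes. In db/db replicate 2, whose white adipocyte markers were not high, it was 17 (43.6%), against 36.5% of all genes. In db/db + irbesartan replicate 2, 10 members lay more than 0.5 above the mean of the other 2 mice of the group, against 1.77% of all genes. They were Fasn, Scd1, Pparg, Plin1, Plin2, Plin4, Cidec, Fitm1, Fabp4 and Adipoq. In db/m replicate 2 there were 4, Thrsp, Plin1, Plin4 and Cidec, against 1.83% of all genes. The counts of called members and each call below are therefore also given without both arrays. The part that fat cells or macrophages in the dissected tissue had in these signals was not tested.

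**Figure D2:**
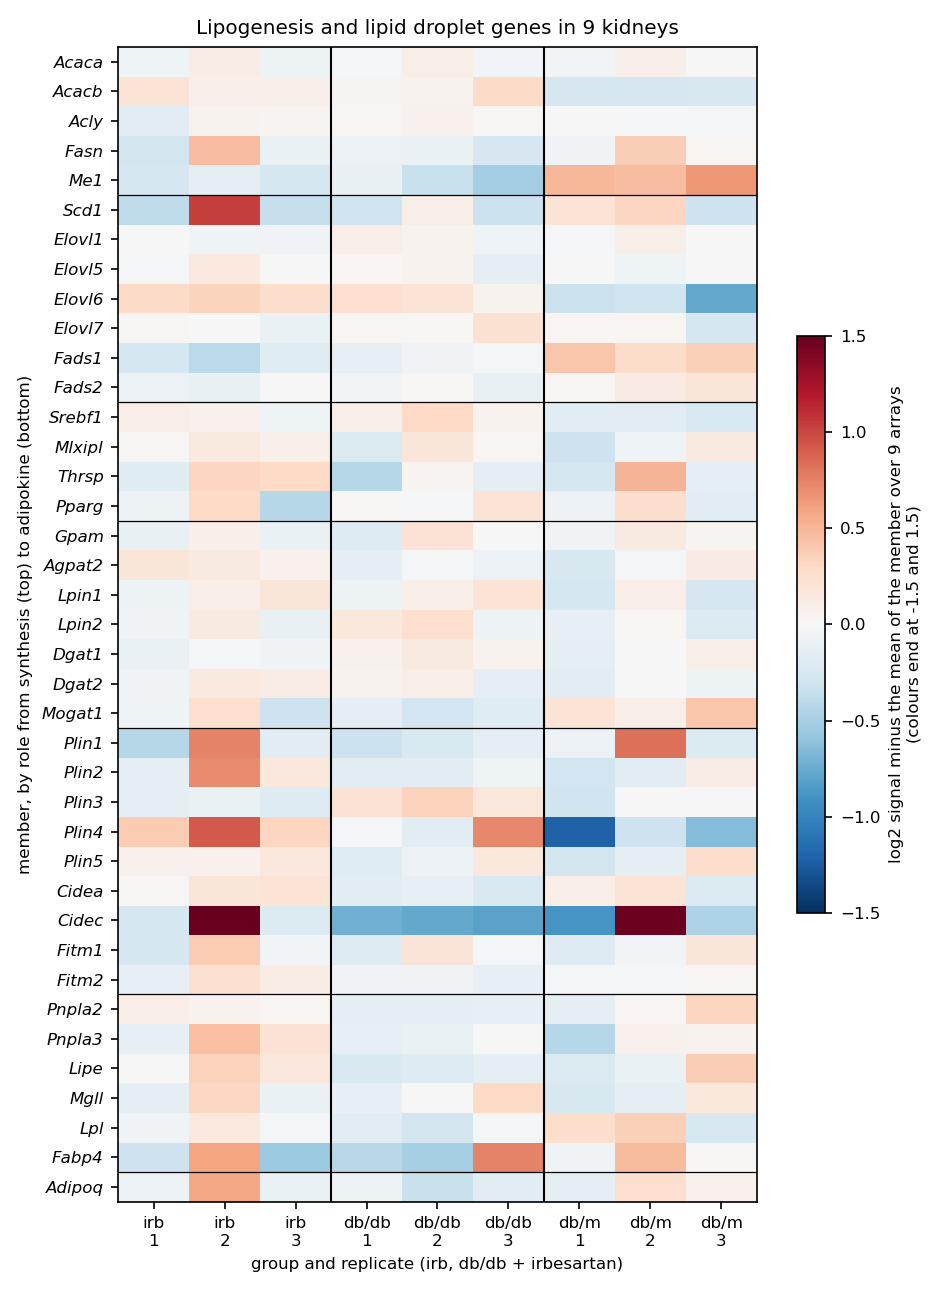
Log2 signal of the 39 members (rows, by role from synthesis at the top to the adipokine at the bottom) minus the mean of each member over 9 arrays, by mouse (columns), with colours ending at -1.5 and 1.5. Scd1, Plin1, Plin2, Plin4, Cidec, Fabp4 and Adipoq are red in db/db + irbesartan replicate 2. Plin1 and Cidec are also red in db/m replicate 2, and Plin4 and Fabp4 in db/db replicate 3. The rows of Me1, Elovl6 and Fads1 follow the groups.

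Irbesartan left this gene set without a call. Against untreated db/db mice, 0 of the 39 members was called. A call needed a log2 fold change beyond 0.5 in either direction and, in limma, an adjusted p below 0.25 (Benjamini-Hochberg over all genes), and these thresholds were used throughout. Over all genes, 1.01% were called (0.577% higher and 0.428% lower). At an unadjusted p under 0.05, limma returned 4 members (Fads1, Plin3, Cidea and Lipe), where 12.2% of all genes passed. The median log2 fold change of the members was 0.08, against -0.01 for all genes, with 23 members positive and 16 negative. Without both arrays that carried fat cell genes the members' median was 0.01 and the count was again 0.

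The member with the lowest adjusted p was Plin3, a perilipin that binds nascent droplets. It read 7.10, 7.14 and 7.05 in db/db + irbesartan mice, 7.45, 7.59 and 7.41 in db/db mice, and 6.94, 7.24 and 7.24 in db/m mice. All 3 treated mice lay below all 3 untreated db/db mice, and they lay among the db/m mice. The log2 fold change against db/db was -0.39 ± 0.10 (SE), with an adjusted p of 0.215 in limma, which missed the fold change condition. Plin3 was the only member past the adjusted p of 0.25 alone, which 2.89% of all genes passed, and without both arrays it no longer did (-0.41, adjusted p = 0.356). The largest difference was that of Cidec, at 1.48 ± 0.72 (SE, adjusted p = 0.438), which became 0.53 (adjusted p = 0.29) without both arrays. Plin3 and Cidec were chosen for description after their values were seen.

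Groups did not overlap for 10 members of 39, against 21.8% of all genes. They were Elovl6, Elovl7, Fads1, Agpat2, Dgat1, Plin3, Cidea, Cidec, Pnpla2 and Lipe. Pnpla2, the triglyceride lipase ATGL that starts lipolysis, was among them. It read 9.57, 9.52 and 9.50 in db/db + irbesartan mice, 9.33, 9.33 and 9.34 in db/db mice, and 9.32, 9.50 and 9.79 in db/m mice. Treated mice lay above untreated db/db mice by a small margin, at a log2 fold change of 0.19 ± 0.11 (SE, adjusted p = 0.521). The 95% interval of the difference lay within 0.5 on either side of 0 for 24 members and within 1 for 38, the exception being Cidec.

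By role, the 5 synthesis members ranged over log2 fold changes of -0.06 to 0.18 with irbesartan, and the 7 members of triglyceride assembly over -0.14 to 0.21. The 7 desaturases and elongases ranged over -0.21 to 0.28 and the 4 regulators over -0.14 to 0.32. Of the 9 droplet proteins 8 were positive, with a median of 0.28, and 5 of them (Plin1, Plin2, Plin4, Cidec and Fitm1) were more than 0.5 high in db/db + irbesartan replicate 2. None of these groups held a called member.

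**Figure D3:**
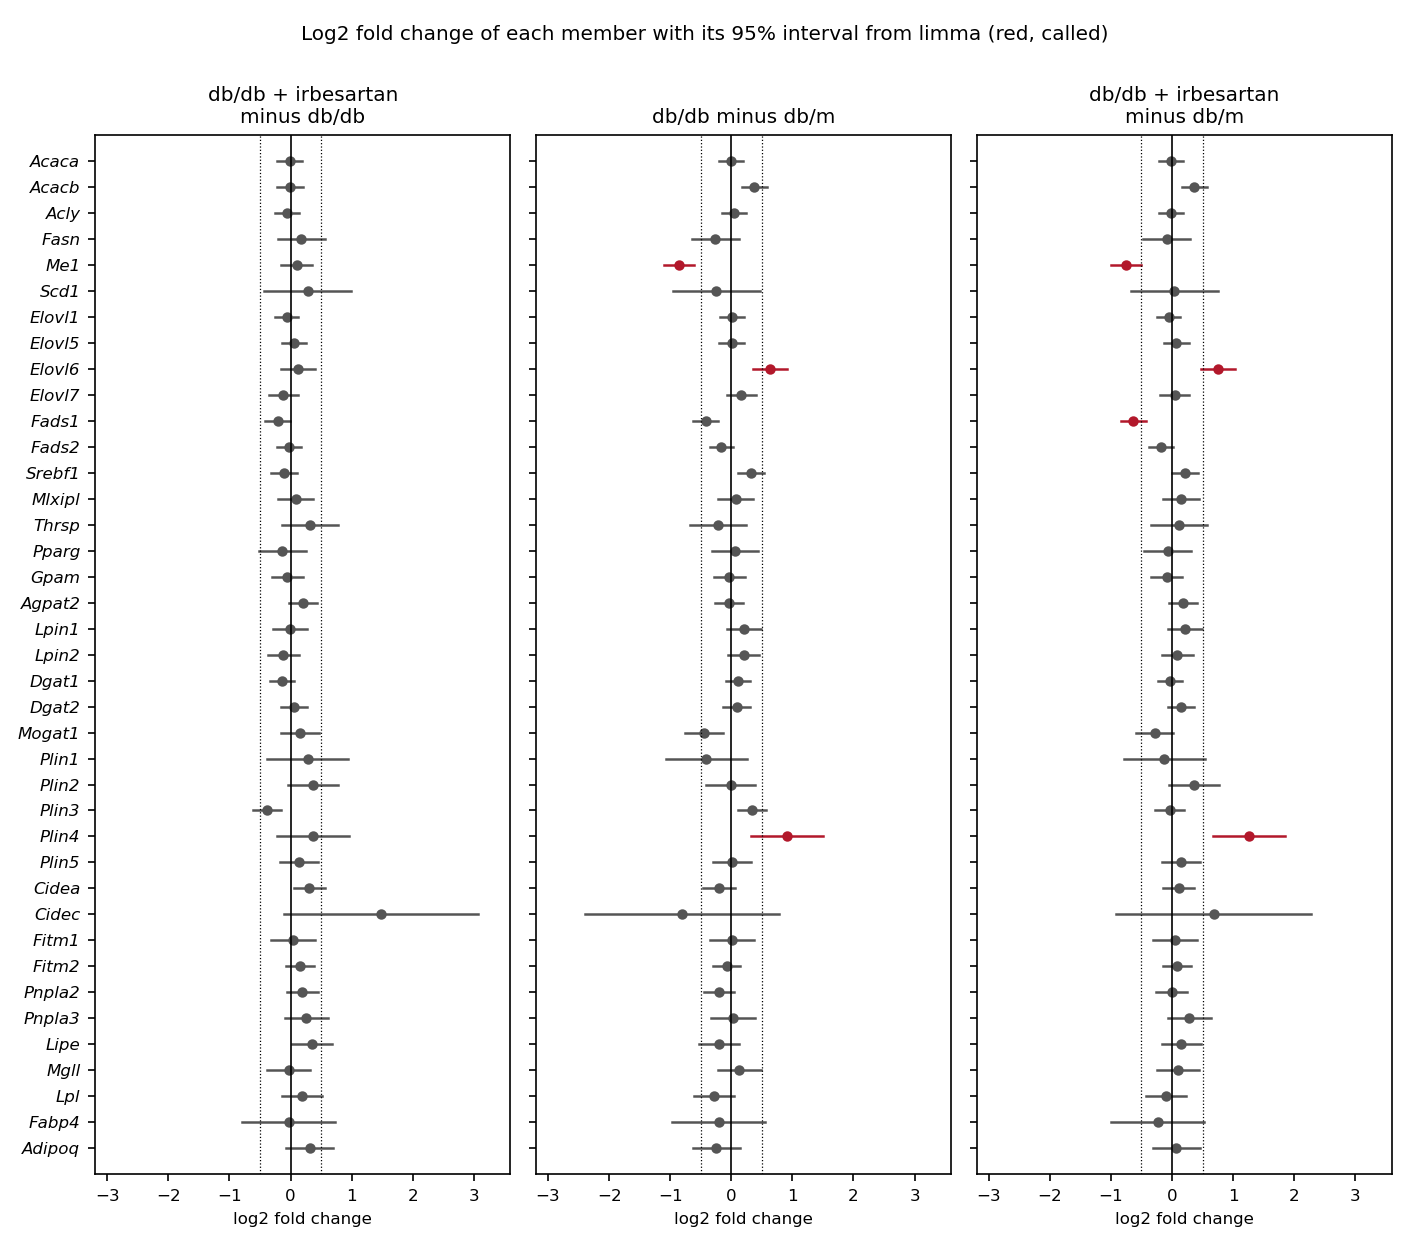
Log2 fold change (x axis) of the 39 members (rows) in db/db + irbesartan minus db/db, db/db minus db/m, and db/db + irbesartan minus db/m mice, with the 95% interval from limma, the members called in red and dotted lines at -0.5 and 0.5. The left panel holds no called member, the middle panel 3 (Me1, Elovl6, Plin4) and the right panel 4 (Me1, Elovl6, Fads1, Plin4).

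A few members differed between diabetic and nondiabetic kidneys, in both directions. Elovl6 and Plin4 were called higher and Me1 lower in db/db kidneys, treated or not. In untreated mice the calls of Elovl6 and Plin4 were each lost without certain single arrays. Fads1 was called lower in treated db/db kidneys, and in untreated ones it was also lower but missed the fold change condition. Most of the synthesis, assembly and lipolysis genes passed no test in either group. In untreated db/db against db/m mice 3 of 39 members were called, 2 higher and 1 lower (7.69%), against 2.30% of all genes (1.31% higher and 0.987% lower). In db/db + irbesartan against db/m mice 4 were called, 2 higher and 2 lower (10.3%), against 3.89% of all genes (1.93% higher and 1.96% lower). Without both arrays with fat cell genes the counts were 4 in untreated mice, where 654 of all genes were called, and 5 in treated mice, where 1191 were, with Mogat1 added in each. Both comparisons share the 3 db/m arrays, so they are given side by side and not as independent of each other. Against db/m, the median log2 fold change in treated mice was 0.07 for the members and -0.00 for all genes, and in untreated db/db mice it was -0.00 for the members and 0.01 for all genes.

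In RNA of bulk tissue, fewer cells of a type and less RNA per cell cannot be told apart. At the stricter adjusted p of 0.05, Me1 and Elovl6 were called in untreated db/db mice, where 1.02% of all genes were, and all 4 members in treated mice, where 2.49% of all genes were. With no condition on the fold change, 8 members passed in untreated mice (Acacb, Me1, Elovl6, Fads1, Srebf1, Mogat1, Plin3 and Plin4), against 6.36% of all genes, and 5 in treated mice (Acacb, Me1, Elovl6, Fads1 and Plin4), against 13.8%. Groups did not overlap for 12 members in untreated db/db against db/m mice, where 16.8% of all genes did not overlap, and for 7 in treated db/db against db/m mice, where 23.5% did not.

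Me1, the cytosolic malic enzyme that supplies NADPH for fatty acid synthesis, had the largest fall. It read 8.93, 9.05 and 8.91 in db/db + irbesartan mice, 9.08, 8.85 and 8.67 in db/db mice, and 9.68, 9.64 and 9.83 in db/m mice. All 6 db/db mice lay below all 3 db/m mice, and the treated and untreated db/db mice overlapped. Relative to db/m, Me1 changed by a log2 fold change of -0.75 ± 0.11 (SE, adjusted p = 0.00678) in treated mice and -0.85 ± 0.11 (SE, adjusted p = 0.00604) in untreated mice, or 0.593 and 0.553 of the db/m level. Without both arrays it was -0.83 (adjusted p = 0.0412) and -0.89 (adjusted p = 0.026).

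Elovl6, the elongase that makes stearate from palmitate, was higher in diabetic kidneys. It read 8.95, 8.998 and 8.92 in db/db + irbesartan mice, 8.92, 8.87 and 8.72 in db/db mice, and 8.34, 8.37 and 7.89 in db/m mice. Both db/db groups lay wholly above db/m, and db/m replicate 3 was the lowest mouse. Elovl6 rose by a log2 fold change of 0.76 ± 0.13 (SE, adjusted p = 0.0109) in treated and 0.64 ± 0.13 (SE, adjusted p = 0.0417) in untreated mice. Without db/m replicate 3 the difference of untreated mice was 0.48 (adjusted p = 0.0565), below the fold change condition. Without both arrays with fat cell genes Elovl6 gave 0.82 (adjusted p = 0.0483) in treated and 0.72 (adjusted p = 0.0783) in untreated mice.

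Fads1, a desaturase that makes arachidonic acid and other long polyunsaturated fatty acids, was lowest in treated db/db mice and highest in db/m mice. It read 8.91, 8.77 and 8.99 in db/db + irbesartan mice, 9.05, 9.12 and 9.14 in db/db mice, and 9.60, 9.45 and 9.53 in db/m mice. No 2 groups overlapped. The log2 fold change against db/m was -0.63 ± 0.09 (SE, adjusted p = 0.00583) in treated mice and -0.42 ± 0.09 (SE, adjusted p = 0.0627) in untreated mice, which missed the fold change condition. The step between treated and untreated db/db mice was -0.21 ± 0.09 (SE, adjusted p = 0.397), and passed no threshold after adjustment. Without both arrays with fat cell genes the differences from db/m were -0.61 (adjusted p = 0.0464) in treated and -0.46 (adjusted p = 0.115) in untreated mice.

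Plin4, a perilipin of fat and muscle that coats new droplets, was higher in diabetic kidneys with a wide spread. It read 5.43, 5.96 and 5.36 in db/db + irbesartan mice, 5.02, 4.89 and 5.77 in db/db mice, and 3.83, 4.73 and 4.40 in db/m mice. Both db/db groups lay above db/m, narrowly so for db/db replicate 2 over db/m replicate 2. Against db/m, the rise was 1.27 ± 0.27 (SE, adjusted p = 0.0302) in treated and 0.91 ± 0.27 (SE, adjusted p = 0.166) in untreated mice. The call in untreated mice was lost without db/m replicate 1 (0.66, adjusted p = 0.341), db/m replicate 3 (0.94, adjusted p = 0.255) or db/db replicate 3 (0.63, adjusted p = 0.363). Plin4 was among the members that were high in both arrays with fat cell genes. Without both arrays it was called in treated (1.28, adjusted p = 0.0709) and untreated mice (1.11, adjusted p = 0.115).

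**Figure D4:**
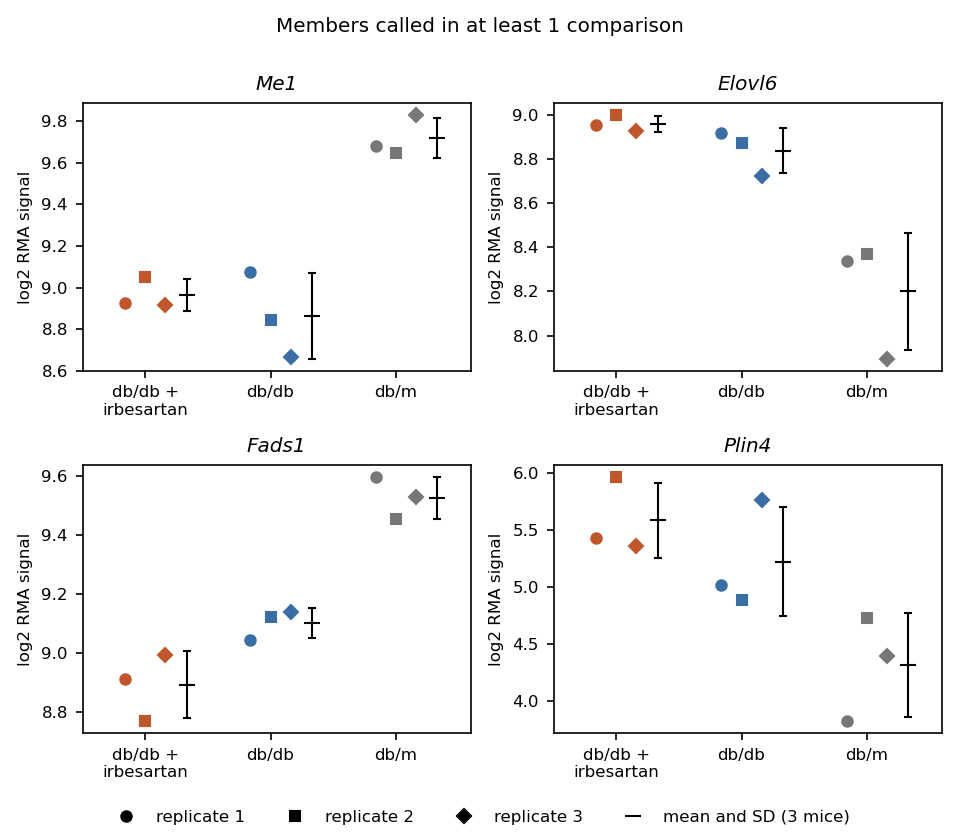
Log2 RMA signal (y axis) of the 4 called members by group (x axis), 1 point per mouse with the mean and SD of 3 mice. Me1 and Fads1 were lower and Elovl6 and Plin4 higher in all 6 diabetic mice than in any db/m mouse, with means of 8.96, 8.86 and 9.72 for Me1 and 8.96, 8.84 and 8.20 for Elovl6 in db/db + irbesartan, db/db and db/m mice.

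The promoters of the called members that the RefSeq table (GRCm38.p6) holds are shown because these members were called against db/m. Fads1 was also called but has no entry there. Each window runs from 250 bases before to 50 bases after the start of the gene, 5′ to 3′ on the strand of the gene, and capitals mark matches to the motifs searched. Elovl6 lies at chr3:129532136-129532435 on the plus strand, Me1 at chr9:86695865-86696164 on the minus strand and Plin4 at chr17:56109733-56110032 on the minus strand.
Me1: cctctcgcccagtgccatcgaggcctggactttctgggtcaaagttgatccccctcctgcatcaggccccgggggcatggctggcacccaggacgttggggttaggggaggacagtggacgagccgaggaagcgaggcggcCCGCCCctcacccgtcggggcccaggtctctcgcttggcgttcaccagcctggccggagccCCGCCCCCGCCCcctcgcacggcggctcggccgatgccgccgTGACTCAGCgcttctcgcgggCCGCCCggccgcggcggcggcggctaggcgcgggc
Elovl6: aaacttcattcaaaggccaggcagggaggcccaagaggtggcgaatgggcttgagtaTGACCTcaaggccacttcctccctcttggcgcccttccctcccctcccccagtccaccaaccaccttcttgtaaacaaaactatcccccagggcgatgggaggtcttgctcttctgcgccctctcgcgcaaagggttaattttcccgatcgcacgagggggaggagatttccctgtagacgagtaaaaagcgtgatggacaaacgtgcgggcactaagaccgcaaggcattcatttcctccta
Plin4: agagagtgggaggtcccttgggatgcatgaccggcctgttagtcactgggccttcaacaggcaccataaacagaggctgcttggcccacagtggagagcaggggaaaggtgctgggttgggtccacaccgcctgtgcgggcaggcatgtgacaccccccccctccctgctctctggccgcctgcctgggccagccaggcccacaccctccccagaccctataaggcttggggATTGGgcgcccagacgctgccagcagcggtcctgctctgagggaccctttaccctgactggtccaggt

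The Me1 window held the antioxidant response element core TGACNNNGC at bases 245 to 253 and 4 GC boxes (GGGCGG, read as CCGCCC) at bases 142 to 147, 203 to 208, 209 to 214 and 266 to 271. The Elovl6 window held the nuclear receptor motif AGGTCA on the other strand, read as TGACCT, at bases 58 to 63. The Plin4 window held a CCAAT box on the other strand, read as ATTGG, at bases 233 to 237. Both strands were searched, and no match overlapped another in these windows. Of 32851 promoters of the same length, 12.4% held the antioxidant response element core, 16.3% AGGTCA, 37.4% CCAAT and 35.7% GGGCGG, so each motif was common. Windows were present for 32 members. The antioxidant response element core was found in 2 of them (Me1 and Fitm1), AGGTCA in 7, CCAAT in 16 and GGGCGG in 17. The E-box CACGTG was found in 6 members and in 7.15% of all promoters, and the sterol regulatory element core TCACNCCAC in 0 members and in 1.24% of all promoters. A match is a description of these letters only.

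The other synthesis members gave no call. Acacb, an acetyl-CoA carboxylase whose malonyl-CoA restrains fatty acid oxidation, read 6.14, 6.02 and 6.02 in db/db + irbesartan mice, 5.98, 6.001 and 6.23 in db/db mice, and 5.69, 5.69 and 5.70 in db/m mice. All 6 db/db mice lay above the 3 db/m mice. Against db/m, its log2 fold change was 0.37 ± 0.10 (SE, adjusted p = 0.0672) in treated and 0.38 ± 0.10 (SE, adjusted p = 0.105) in untreated mice, below the fold change condition in both. Acaca, the carboxylase of cytosolic synthesis, had log2 fold changes of -0.02 and -0.00 against db/m in treated and untreated mice, and Acly, the citrate lyase, -0.01 and 0.05. Fasn, the fatty acid synthase, had -0.09 and -0.26, with 8.21 in db/db + irbesartan replicate 2 and 8.12 in db/m replicate 2 as its highest values. Acacb, Acaca, Acly and Fasn were singled out after their values were seen.

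Fads2, the desaturase that acts before Fads1, had the highest signal of the desaturases and elongases, which does not rank their transcripts. It read 10.71, 10.68 and 10.79 in db/db + irbesartan mice, 10.75, 10.81 and 10.68 in db/db mice, and 10.83, 10.92 and 10.98 in db/m mice. All db/db mice lay below db/m mice, by log2 fold changes of -0.18 (adjusted p = 0.321) in treated and -0.16 (adjusted p = 0.467) in untreated mice. Scd1, the desaturase that makes oleate, read 8.74, 10.15 and 8.77 in db/db + irbesartan mice, 8.82, 9.20 and 8.79 in db/db mice, and 9.31, 9.43 and 8.80 in db/m mice, so that 1 treated mouse set its spread. The elongases Elovl1, Elovl5 and Elovl7 stayed between -0.12 and 0.16 in all 3 comparisons.

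The regulators gave no call. Srebf1 read 5.72, 5.68 and 5.56 in db/db + irbesartan mice, 5.71, 5.92 and 5.68 in db/db mice, and 5.47, 5.46 and 5.39 in db/m mice. All 6 db/db mice lay above db/m, by a log2 fold change of 0.22 ± 0.10 (SE, adjusted p = 0.281) in treated and 0.33 ± 0.10 (SE, adjusted p = 0.164) in untreated mice. Mlxipl read 8.54, 8.67 and 8.61 in db/db + irbesartan mice, 8.31, 8.71 and 8.56 in db/db mice, and 8.22, 8.48 and 8.67 in db/m mice. Its groups overlapped throughout. Pparg read 5.11, 5.48 and 4.76 in db/db + irbesartan mice, 5.21, 5.16 and 5.40 in db/db mice, and 5.10, 5.45 and 5.03 in db/m mice, with log2 fold changes of -0.07 in treated and 0.06 in untreated mice against db/m. Thrsp, a small protein induced by thyroid hormone and carbohydrate, had 0.11 and -0.21.

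Triglyceride assembly held no call among its 7 members. Dgat2, an enzyme of the last step of triglyceride synthesis, read 9.96, 10.15 and 10.12 in db/db + irbesartan mice, 10.06, 10.11 and 9.87 in db/db mice, and 9.85, 9.996 and 9.93 in db/m mice, with overlap between all groups. Mogat1, which acylates monoacylglycerol, read 7.85, 8.16 and 7.59 in db/db + irbesartan mice, 7.77, 7.63 and 7.73 in db/db mice, and 8.12, 8.01 and 8.33 in db/m mice. Untreated db/db mice lay below db/m mice at -0.44 ± 0.14 (SE, adjusted p = 0.194), just short of the fold change condition. Without db/m replicate 2 the value was -0.52 (adjusted p = 0.182) and it was called, and without both arrays it was called in treated (-0.50, adjusted p = 0.128) and untreated mice (-0.52, adjusted p = 0.133). Mogat1 was singled out after its values were seen. Gpam, Agpat2, Lpin1, Lpin2 and Dgat1, the acyltransferases and phosphatases of the pathway, ranged over log2 fold changes of -0.09 to 0.21 against db/m. A second, dim probe set of Lpin2 had the opposite sign with irbesartan, at 0.15 where the probe set used gave -0.12. Against db/m it gave 0.58 in treated and 0.43 in untreated mice, where the probe set used gave 0.09 and 0.21.

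Among the other droplet proteins, Fitm1, which helps droplets bud from the endoplasmic reticulum, read 8.69, 9.32 and 8.90 in db/db + irbesartan mice, 8.75, 9.14 and 8.91 in db/db mice, and 8.76, 8.90 and 9.12 in db/m mice. The groups overlapped in all comparisons. Plin2, the perilipin of most nonfat cells, read 8.24, 9.09 and 8.54 in db/db + irbesartan mice, 8.22, 8.23 and 8.32 in db/db mice, and 8.10, 8.21 and 8.50 in db/m mice, so that its highest value was db/db + irbesartan replicate 2. Against db/m, treated mice gave 0.36 (adjusted p = 0.357), and 0.55 (adjusted p = 0.184) without db/db + irbesartan replicate 1, which was a call, and 0.10 without both arrays. Plin2 was singled out after its values were seen. Plin1, Plin5, Cidea, Cidec and Fitm2 gave no call. Cidea, with Adipoq, had a mean at or below the median probe set mean of 3.39, so its values lay in the dim part of the array.

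The lipases and carriers gave no call. Lipe, the hormone-sensitive lipase, Mgll, the monoglyceride lipase, and Lpl, the lipase that frees fatty acid from lipoproteins, had log2 fold changes of 0.15, 0.10 and -0.10 in treated and -0.20, 0.13 and -0.28 in untreated mice against db/m. Pnpla3, a relative of ATGL, had 0.29 and 0.03. Fabp4, the fatty acid carrier of fat cells, macrophages and capillary endothelium, read 8.75, 9.66 and 8.51 in db/db + irbesartan mice, 8.65, 8.56 and 9.81 in db/db mice, and 9.01, 9.54 and 9.09 in db/m mice. It was high in 1 mouse of each group. Adipoq, which encodes adiponectin, read 2.73, 3.40 and 2.72 in db/db + irbesartan mice, 2.75, 2.49 and 2.66 in db/db mice, and 2.68, 3.07 and 2.89 in db/m mice. Its only values above 3 were those of the 2 arrays with fat cell genes.

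Outside the 40 genes, 45 genes of the same pathways were measured, for sterol sensing, fatty acid supply, further elongases and desaturases, further triglyceride assembly and the control of lipolysis. Against untreated db/db mice, treated mice had 1 of the 45 higher and 0 lower, where 1.01% of all genes were called. Against db/m, treated mice had 2 higher and 2 lower, where 3.89% of all genes were called, and untreated db/db mice 1 higher and 1 lower, where 2.30% were. Their median log2 fold changes were -0.03, -0.03 and -0.05 in these comparisons, and those of all genes -0.01, -0.00 and 0.01.

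Cd36, which carries fatty acid into cells, had the largest fall. It read 8.24, 8.87 and 7.89 in db/db + irbesartan mice, 7.97, 8.02 and 7.95 in db/db mice, and 10.16, 9.998 and 9.91 in db/m mice. All db/db mice lay more than 1 below all db/m mice. The log2 fold change was -1.69 ± 0.19 (SE, adjusted p = 0.00191) in treated and -2.04 ± 0.19 (SE, adjusted p = 0.000857) in untreated mice, or 0.31 and 0.243 of the db/m level. Without both arrays with fat cell genes it was -1.97 (adjusted p = 0.000855) and -2.06 (adjusted p = 0.00052). Treated and untreated db/db mice differed by 0.36 (adjusted p = 0.487).

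Acsl4, which activates arachidonic acid as its CoA ester, was higher. It read 7.68, 8.28 and 8.05 in db/db + irbesartan mice, 7.64, 7.62 and 7.76 in db/db mice, and 7.12, 7.38 and 6.94 in db/m mice. Its log2 fold change was 0.86 ± 0.15 (SE, adjusted p = 0.0151) in treated and 0.52 ± 0.15 (SE, adjusted p = 0.165) in untreated mice. The call in untreated mice was lost without db/m replicate 1 (0.51, adjusted p = 0.29), db/m replicate 3 (0.42, adjusted p = 0.319), db/db replicate 1 (0.54, adjusted p = 0.294) or db/db replicate 3 (0.48, adjusted p = 0.332). It was also lost with array weights (0.46, adjusted p = 0.305), a second quantile normalization (0.49, adjusted p = 0.194) and every probe set tested (adjusted p = 0.323). Without both arrays with fat cell genes Acsl4 was called in treated (0.83, adjusted p = 0.0412) and untreated mice (0.64, adjusted p = 0.0945). Fads3, a desaturase-like gene that neighbours Fads1 and Fads2 on chromosome 19, read 9.91, 9.78 and 9.93 in db/db + irbesartan mice, 10.21, 10.22 and 10.03 in db/db mice, and 10.42, 10.42 and 10.64 in db/m mice. Like Fads1, no 2 of its groups overlapped, and it fell in treated mice against db/m (-0.62 ± 0.10, SE, adjusted p = 0.00997; -0.61, adjusted p = 0.0684 without both arrays), where Fads2 was not called. In untreated mice Fads3 gave -0.35 (adjusted p = 0.165), below the fold change condition.

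**Figure D5:**
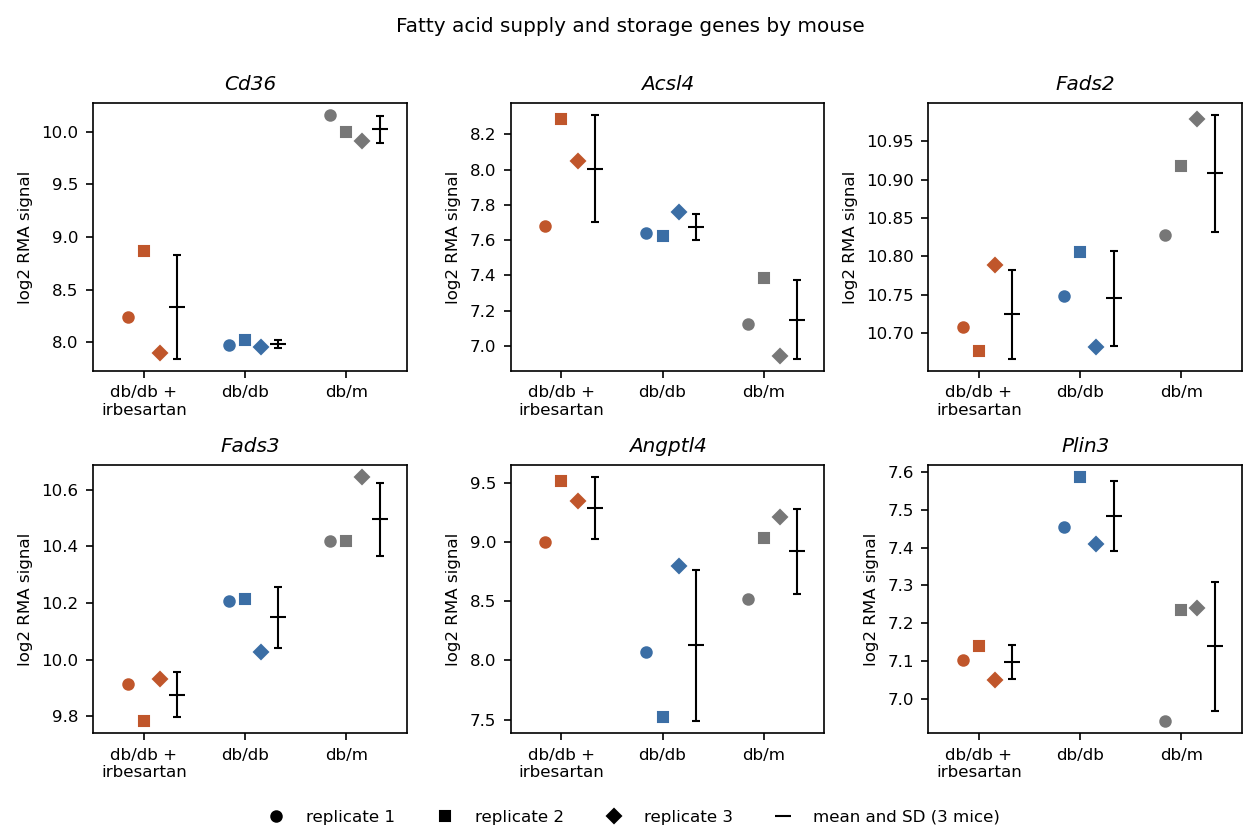
Log2 RMA signal (y axis) of the fatty acid carrier Cd36, the activating enzyme Acsl4, the desaturases Fads2 and Fads3, the lipase inhibitor Angptl4 and the droplet coat gene Plin3 by group (x axis), 1 point per mouse with the mean and SD of 3 mice. Cd36 averaged 8.34 and 7.98 in db/db + irbesartan and db/db mice and 10.02 in db/m mice, while Angptl4 averaged 9.29 in db/db + irbesartan and 8.13 in db/db mice.

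Angptl4, a secreted inhibitor of lipoprotein lipase, was the related gene that rose with irbesartan. It read 8.9999, 9.51 and 9.35 in db/db + irbesartan mice, 8.07, 7.52 and 8.80 in db/db mice, and 8.52, 9.04 and 9.21 in db/m mice. Treated mice lay above all untreated db/db mice and overlapped db/m mice. Against db/m, the log2 fold change was 0.37 (adjusted p = 0.557) in treated and -0.79 (adjusted p = 0.255) in untreated mice, and neither was called. The log2 fold change against db/db was 1.16 ± 0.28 (SE, adjusted p = 0.174). The call was lost without any 1 treated mouse (adjusted p = 0.345, 0.328 and 0.429 without replicates 1, 2 and 3) and without db/db replicate 1 (1.13, adjusted p = 0.289) or 2 (0.85, adjusted p = 0.379), and without both arrays with fat cell genes (1.04, adjusted p = 0.363). The RNA of Lpl, which encodes the lipase that it inhibits, was not called, at 0.18 (adjusted p = 0.662). The activity of the lipase was not measured here.

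Fabp1, the liver-type fatty acid binding protein, read 2.82, 4.48 and 3.08 in db/db + irbesartan mice, 3.08, 3.33 and 2.88 in db/db mice, and 2.40, 2.13 and 2.68 in db/m mice. Its mean over the 9 arrays, 2.98, lay below the median probe set mean of 3.39, so its signal was not shown to be above background. It passed the thresholds in treated mice against db/m (1.06 ± 0.34, SE, adjusted p = 0.139), with db/db + irbesartan replicate 2 far above the others, and the call was lost without db/m replicate 2 (0.92, adjusted p = 0.252) and without both arrays (0.41, adjusted p = 0.304). Without db/db + irbesartan replicate 2 alone the difference was 0.55 (adjusted p = 0.189). Of the sterol-sensing genes, Srebf2, which encodes the factor of cholesterol synthesis, read 7.61, 7.54 and 7.55 in db/db + irbesartan mice, 7.87, 8.02 and 7.74 in db/db mice, and 8.03, 7.98 and 8.16 in db/m mice. Treated mice lay below both other groups, at -0.49 against db/m (adjusted p = 0.0234), just short of the fold change condition. Insig1, which holds SREBPs in the endoplasmic reticulum, read 8.17, 8.20 and 8.06 in db/db + irbesartan mice, 8.26, 8.11 and 7.87 in db/db mice, and 7.96, 8.20 and 8.31 in db/m mice, with overlap between all groups.

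Among the markers of other cell types, 1 was called. Csf1r, the receptor that macrophages depend on, read 6.20, 6.69 and 6.11 in db/db + irbesartan mice, 6.32, 6.29 and 6.54 in db/db mice, and 6.75, 6.88 and 6.98 in db/m mice. It fell in treated mice against db/m (-0.54 ± 0.15, SE, adjusted p = 0.0801), and the call was lost without db/m replicate 3 (-0.48), db/db + irbesartan replicate 1 (-0.47, adjusted p = 0.255) or replicate 3 (-0.43, adjusted p = 0.271), while it was -0.71 (adjusted p = 0.0501) without both arrays with fat cell genes. Untreated db/db mice also lay below all db/m mice, at -0.48 ± 0.15 (SE, adjusted p = 0.177), just short of the fold change condition. The other 8 macrophage genes and the 7 white adipocyte markers gave no call in any comparison.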

How the data were processed

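Kidney RNA of 9 mice was hybridized to Affymetrix arrays, 1 per mouse. The submitters' processing notes name Affymetrix Expression Console and RMA. The deposited values are log2 signals, 1 for each of 41345 probe sets, and the genome build and software versions are not given in the sources used here. The values were used as deposited. RMA aligns the distributions of arrays, so a shift shared by all genes is not visible. Symbols came from the platform annotation: 23521 probe sets had 1 symbol, 1820 several and 16004 none here. The members and lists were chosen with earlier results of these data known. Genes named were called members, Srebf1, Mlxipl, Pparg, the highest-mean member of each role, called related genes and markers, Insig1 and Srebf2. Others were chosen after values were seen.

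All arrays were fitted together in limma 3.58.1 (R 4.3.3) as group means, and variances were moderated across genes (residual degrees of freedom 6, prior 5.05). The study's condition on the fold change, written with the opposite inequality, was read as a lower bound. Adjusted p-values are limma's with Benjamini-Hochberg adjustment over 22180 genes, two-sided. Arrays are separate mice, so p-values set a difference against the spread between mice, pooled over the groups and moderated across genes. With 3 mice per group the precision is limited. The fit was tested on simulated data. Alternatives were other variance models, array weights, a filter on dim probe sets (above 3.39, 13962 genes), other uses of probe sets, other scaling, a replicate block, other thresholds and each array left out in turn. Leaving out both arrays with fat cell genes was chosen after seeing the data. Scd2 was not analysed.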

Additional observations from a re-analysis of the deposited data

How the results depend on the processing

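The call counts of 0 (db/db + irbesartan against db/db), 3 (db/db against db/m) and 4 (db/db + irbesartan against db/m) were recomputed under 22 alternatives each. With no condition on the fold change they were 1, 8 and 5, and with unmoderated variances on the 6 arrays compared 0, 0 and 3, where all genes gave 0, 5 and 511 calls. Leaving out 1 array at a time gave 0 in every case, 1 to 4, and 4 to 5. No named difference reversed. With unmoderated variances, the db/db against db/m calls of Me1 (adjusted p = 0.334), Elovl6 (0.457) and Plin4 (0.596) were lost, as was that of Plin4 in treated mice (0.258), whereas Me1, Elovl6 and Fads1 in treated mice against db/m held in all 22. Among the related genes and markers it lost Angptl4 (0.368), Acsl4 in treated and untreated db/db mice (0.254 and 0.457), Fabp1 (0.468) and Csf1r (0.35). With every probe set tested, Plin4 (adjusted p = 0.335) and Acsl4 (0.323) were lost in db/db against db/m, and Angptl4 (0.282) with irbesartan. The filter on dim probe sets removed Fabp1. The replicate block gave 0, 3 and 4 members, with the same members called. Same-numbered mice correlated at -0.08 to 0.04 in their deviations over all genes. These values showed no pairing by number, but could miss one that touched few genes.

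Over all genes, the 223 calls with irbesartan became 364 with array weights, 131 with every probe set, 143 with the replicate block, 90 without both arrays with fat cell genes, 641 with no condition on the fold change, 0 at an adjusted p of 0.05, and 20 to 336 without 1 array. Centring each array on its median gave 317, 112 of them higher, against 128 of 223. The 510 calls of db/db against db/m became 227 at an adjusted p of 0.05 and 1410 with no condition on the fold change. The 862 of db/db + irbesartan against db/m became 1565, 552 and 3062 with every probe set, at an adjusted p of 0.05 and with no condition on the fold change. There, centring gave 350 higher of 865, against 428 of 862. The causes were not tested. The array gives no detection call, so how far dim members such as Cidea and Adipoq lay above background is unknown.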
